A study of Rattus norvegicus with 6 samples.

Results

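The cytosolic heat shock proteins examined here are 10 genes: Hspa1a, Hspa1b, Hsph1, Dnajb1, Hspb1 and Hsp90aa1, whose transcription is known to be stress-inducible, and Hspa8, Hsp90ab1, Hspd1 and Hsf1, which are expressed constitutively. The members were taken by gene symbol from a table of 30562 rows, and each symbol matched 1 row. All 10 passed the filter on low counts, as did 14060 rows in all. Hspd1 was kept with the set as listed, although its product is the chaperonin of the mitochondrial matrix, and Hsf1 encodes a transcription factor and not a chaperone.

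The table holds read counts from bulk RNA-seq of 6 mammary tumors of F344 rats, an inbred Fischer strain. Tumors 102, 107 and 116 came from older animals and tumors 157, 158 and 167 from younger animals, 3 of each. The older rats were obtained at 19 to 21 months and received the carcinogen at 21 to 23 months of age, and the younger rats were obtained at 6 to 8 weeks and received it at 4 months. Both groups carried a 50 mg pellet of medroxyprogesterone acetate (MPA), a progestin released over 90 days, and both received 1 oral dose of 65 mg per kg 7,12-dimethylbenz[a]anthracene (DMBA). Every tumor therefore came from a rat treated with carcinogen and progestin, and no untreated mammary gland enters the comparison. Each tumor is a single library. The p-values set the difference between the age groups against the spread between tumors of the same group, for these 6 tumors.

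Heat shock proteins are molecular chaperones that hold, refold or hand on proteins that have lost their shape. Under stress, HSF1 forms trimers and binds heat shock elements, repeats of the unit GAA in alternating orientation, in the promoters of its target genes. In hormone-responsive tissue such as the mammary gland, HSP70 and HSP90 are also known for keeping steroid hormone receptors ready to bind their ligand. HSP70 proteins work with J proteins, which bring them clients and stimulate their ATPase, and with HSP110 proteins, which exchange their nucleotide.

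To show what the promoters of these genes hold, RefSeq promoter sequences (assembly GRCr8, from 250 bases before to 50 after the annotated start, 300 in all) were searched for 3 alternating units, spelled GAANNTTCNNGAA or TTCNNGAANNTTC, and for 2 units, spelled GAANNTTC or TTCNNGAA. Each pair of spellings covers both strands, and every match with 3 units holds matches with 2 units. The longer motif was present in 0.798% of all 33469 promoters and the shorter in 15.9%. Of the 7 members with a promoter in that table, 3 held the longer motif (Hsph1, Hspa8 and Hspd1) and 5 held the shorter (the same 3 with Dnajb1 and Hspb1). Hspa1a and Hsp90ab1 had 0 matches to either motif within the window. Hspa1b, Hsp90aa1 and Hsf1 had no entry. A match describes letters and is not evidence of a bound site.

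The windows with the longer motif are shown because they set the members apart by sequence alone, with the matched bases in capitals and up to 20 bases on each side. Hspa8 held 2 of them, from 213 to 201 and from 55 to 43 bases before its start (chr8:50080281-50080333 and chr8:50080439-50080491, plus strand). In Hsph1 it lay from 36 to 24 bases before the start (chr12:10427312-10427364, plus strand). In Hspd1 the capitals cover 2 overlapping matches from 242 to 225 bases before the start (chr9:64084242-64084287, minus strand). The same bases lie on the opposite strand from 65 to 48 bases before the start of Hspe1 (chr9:64084242-64084299, plus strand), which encodes the mitochondrial cochaperonin of Hspd1 and is transcribed the other way, the 2 promoter windows sharing 211 bases.
Hspa8 distal: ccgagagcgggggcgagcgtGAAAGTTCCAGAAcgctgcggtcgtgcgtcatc
Hspa8 proximal: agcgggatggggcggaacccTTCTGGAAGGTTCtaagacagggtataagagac
Hsph1: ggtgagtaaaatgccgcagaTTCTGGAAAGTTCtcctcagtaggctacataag
Hspd1: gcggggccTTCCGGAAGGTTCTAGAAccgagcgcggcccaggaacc
Hspe1: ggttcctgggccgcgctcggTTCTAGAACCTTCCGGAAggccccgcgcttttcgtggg

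The windows of the other members with a match hold the shorter motif only. In Hspb1 there were 2 matches from 129 to 102 bases before the start (chr12:26432383-26432450, minus strand), and in Dnajb1 the match before the start lay at 11 to 4 bases (chr19:41431142-41431172, minus strand).
Hspb1: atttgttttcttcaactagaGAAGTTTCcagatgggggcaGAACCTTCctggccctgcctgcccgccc
Dnajb1: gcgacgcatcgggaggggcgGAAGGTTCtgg

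Library totals ran from 3508571 to 6525830 counts, so that 3 counts, taken as the floor, correspond to between 0.46 and 0.855 CPM (counts scaled to a common library total), for counting error only. Levels below are CPM on library sizes scaled by the TMM method of edgeR, with factors from 0.865 to 1.12, and they are compared between tumors for the same gene only, because counts are not corrected for gene length. Tumor 102 stood apart: it was the lowest of the 6 tumors for 5 of the 10 members and for 27.3% of all genes tested. Luminal epithelial markers checked the tissue, with 4 of 5 matched to a row and a summed level of 1096 to 1194 CPM in older and 1446 to 1692 CPM in younger tumors. The 5 macrophage markers summed to 120 to 265 CPM in older and 57.1 to 106 CPM in younger tumors, and the 4 T cell markers matched to a row to 5.64 to 12.8 CPM in older and 2.12 to 3.97 CPM in younger tumors. The sums of these lists did not overlap between the age groups, although single genes of each list did. In bulk tissue, fewer cells of a type and less RNA per cell cannot be told apart, and the part of cell composition in the values below was not tested.

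To ask whether the heat shock response differed with the age of the host, tumors from older rats were compared with tumors from younger rats by edgeR's quasi-likelihood test over all 14060 genes. None of the 10 members passed an adjusted p of 0.05 (0 of 10), where 0% of all genes did. At an unadjusted p under 0.05 the count was also 0 of 10, against 8.56% of all genes. With DESeq2 the count was 0 of 10 against 2.47% of the genes with an adjusted p. The fitted log2 fold change was negative, meaning a lower level in older tumors, for 8 of the 10 members, against 50.4% of all genes. The smallest edgeR adjusted p among the 10 members was 0.656. The median was -0.72 over the 6 inducible members and -0.28 over the 4 constitutive ones, beside -0.0033 over all genes tested.

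**Figure D1:**
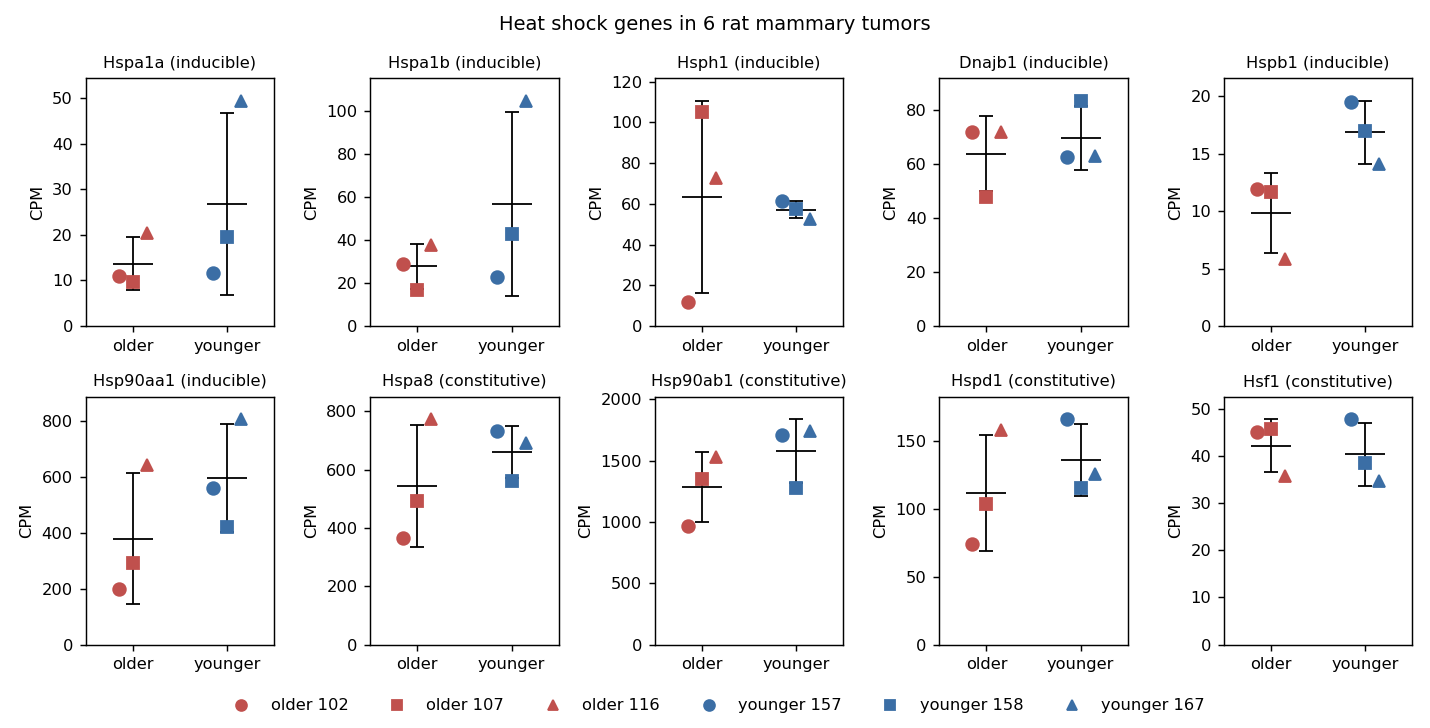
CPM of the 10 genes (vertical axes, each starting at 0) in the 3 older (red) and 3 younger (blue) tumors, with the mean and SD of each age group in black. The age groups overlap in 9 of the 10 panels, and Hspb1 is the exception.

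Hspa1a and Hspa1b encode the major stress-inducible HSP70, and their coding sequences are nearly identical, so reads can be split between them. Hspa1a was at 10.9 CPM in tumor 102, 9.71 CPM in tumor 107 and 20.4 CPM in tumor 116 in the older group, and at 11.6 CPM in tumor 157, 19.5 CPM in tumor 158 and 49.4 CPM in tumor 167 in the younger group. Hspa1b was at 28.8, 16.8 and 37.7 CPM in older tumors 102, 107 and 116, and at 22.8, 43.0 and 105 CPM in younger tumors 157, 158 and 167. Both genes were therefore highest in the same younger tumor, 167, while the remaining younger tumors lay within or close to the older range. In the fit, the log2 fold change was -0.96 for Hspa1a (standard error, SE, 0.57, edgeR adjusted p = 0.758) and -1.03 for Hspa1b (SE 0.57, edgeR adjusted p = 0.724). Without tumor 167 these values shrank to -0.18 for Hspa1a and -0.24 for Hspa1b, so their size rested on that library.

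The split of reads between the pair varied little. Hspa1a took between 27.5% of the pair's counts in tumor 102 (exact 95% interval 19.7% to 36.4%) and 36.7% in tumor 107 (28.1% to 45.9%), and the intervals of all 6 tumors overlapped. With the pair summed into a single row, the level was 39.8 CPM in tumor 102, 26.5 CPM in tumor 107 and 58.2 CPM in tumor 116, against 34.4 CPM in tumor 157, 62.4 CPM in tumor 158 and 154 CPM in tumor 167. For the summed row the log2 fold change was -1.01 (SE 0.56, edgeR adjusted p = 0.724), with a 95% interval from -2.30 to 0.29.

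Hsph1 encodes HSP110, the nucleotide exchange factor of HSP70. It had the widest range of the 10 genes, 8.8-fold, and this range lay entirely among the older tumors. Hsph1 was at 11.9 CPM in tumor 102 (36 counts), at 105 CPM in tumor 107 and at 72.8 CPM in tumor 116. In the younger tumors 157, 158 and 167 it was at 61.3, 57.3 and 52.8 CPM, a narrow band between the older extremes. For Hsph1 the fitted difference was 0.15 on the log2 scale (SE 0.63, edgeR adjusted p = 0.977). It was 0.63 without tumor 102 and -0.42 without tumor 107, so the sign depended on which older tumor was included, and limma-voom also gave a negative value (-0.24).

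Dnajb1 encodes an HSP40, the inducible J protein that feeds clients to HSP70. Its levels were 71.6 CPM in tumor 102, 47.6 CPM in tumor 107 and 72.0 CPM in tumor 116, against 62.7 CPM in tumor 157, 83.3 CPM in tumor 158 and 62.8 CPM in tumor 167. The groups overlapped throughout, and the highest tumor was 1.75-fold above the lowest. The age difference was -0.13 on the log2 scale (SE 0.26, edgeR adjusted p = 0.946), with a 95% interval from -0.74 to 0.48. It turned positive without tumor 107 (0.038) or without tumor 158 (0.026).

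Hspb1 encodes HSP27 (Hsp25 in rodents), a small heat shock protein that binds unfolding clients without using ATP. It was at 11.9 CPM in tumor 102, 11.7 CPM in tumor 107 and 5.84 CPM in tumor 116 of the older rats, and at 19.5 CPM in tumor 157, 17.0 CPM in tumor 158 and 14.1 CPM in tumor 167 of the younger rats. All older tumors lay below all younger ones, and this was the case for 1 of the 10 members and for 5.58% of all genes tested. In log2 units the difference was -0.79 (SE 0.38, edgeR adjusted p = 0.656), or -0.52 without tumor 116, and a two-sided exact permutation test of 3 against 3 tumors cannot give a p below 0.1. The counts behind it were low, from 30 to 113 per tumor. The summed luminal markers were likewise lower in every older tumor, as were Krt8 and Epcam singly but not Krt18 and Cdh1, and their part in the Hspb1 values was not tested.

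Hsp90aa1 encodes the inducible HSP90 alpha, which matures kinases and steroid receptors. Its levels were 199 CPM in tumor 102, 291 CPM in tumor 107 and 642 CPM in tumor 116, against 560 CPM in tumor 157, 421 CPM in tumor 158 and 804 CPM in tumor 167. Tumors 102 and 107 lay below every younger tumor, but tumor 116 had the second-highest value of all. The log2 fold change was -0.66 (SE 0.48, edgeR adjusted p = 0.813), -0.35 without tumor 102 and -1.28 without tumor 116.

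The constitutive chaperones had log2 fold changes nearer to 0 than those of the Hspa1 pair, Hspb1 and Hsp90aa1. Their values were farther from 0 than those of the inducible Dnajb1 (-0.13) and Hsph1 (0.15). Hspa8, the HSC70 that serves folding in unstressed cells, was at 365, 493 and 772 CPM in older tumors 102, 107 and 116 and at 731, 560 and 691 CPM in younger tumors 157, 158 and 167. Hsp90ab1, the constitutive HSP90 beta, was at 970, 1347 and 1531 CPM in the same older tumors and at 1712, 1278 and 1739 CPM in the younger ones. Hspd1 was at 73.9, 103 and 159 CPM in the older tumors and at 166, 116 and 126 CPM in the younger ones. In these 3 genes tumor 102 was the lowest library and tumor 116 lay inside or above the younger range. The log2 fold changes were -0.28 for Hspa8 (SE 0.34, edgeR adjusted p = 0.907), -0.30 for Hsp90ab1 (SE 0.33, edgeR adjusted p = 0.902) and -0.28 for Hspd1 (SE 0.32, edgeR adjusted p = 0.905). Rows named as pseudogenes of Hspa8, Hsp90aa1 and Hsp90ab1, which could take reads of these genes, held from 9 to 277 counts each over all 6 tumors. Without tumor 102 the log2 fold changes were -0.06 for Hspa8, -0.13 for Hsp90ab1 and -0.05 for Hspd1, and without tumor 116 they were -0.63, -0.45 and -0.62 in the same order.

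Hsf1, the transcription factor that drives the heat shock response and is controlled largely at the protein level, varied least. It was at 45.1, 45.9 and 35.8 CPM in older tumors 102, 107 and 116 and at 47.9, 38.6 and 34.9 CPM in younger tumors 157, 158 and 167, a 1.37-fold range. The log2 fold change was 0.06 (SE 0.25, edgeR adjusted p = 0.976), and it was -0.019 on unscaled library totals, so its sign depended on the scaling. Its 95% interval ran from -0.52 to 0.64.

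**Figure D2:**
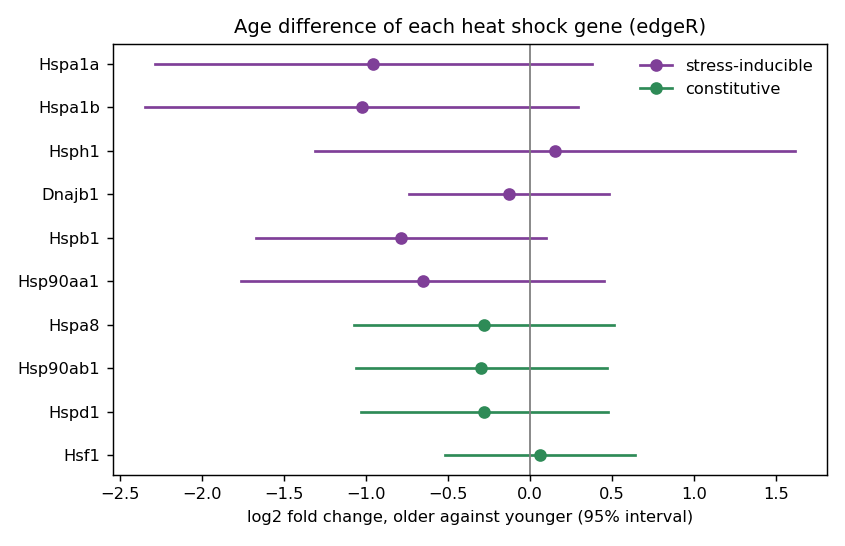
Log2 fold change of each gene, older against younger tumors (horizontal axis), with its 95% interval from edgeR's quasi-likelihood fit, for stress-inducible genes in purple and constitutive genes in green. All 10 intervals include 0, and the widest belongs to Hsph1, from -1.31 to 1.61.

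The intervals show how much these 6 tumors could resolve. On the linear scale, the 95% interval of the older level ran from 0.48 to 1.38 times the younger level for Hsp90ab1 and from 0.70 to 1.56 times for Hsf1. For Hspa1b the interval ran from 0.20 to 1.22 times and for Hsph1 from 0.40 to 3.06 times. A 2-fold lower level in older tumors thus lay inside the interval of Hspa1b and outside that of Hsf1.

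Averaged over log2 CPM, the inducible score was 4.91, 5.26 and 5.66 in older tumors 102, 107 and 116 and 5.58, 5.81 and 6.26 in younger tumors 157, 158 and 167. The constitutive score was 7.54, 7.89 and 8.17 in the older tumors and 8.31, 7.90 and 8.08 in the younger ones. Older tumor 116 lay above the lowest younger tumor in both scores, so that neither separated the age groups. The near-identical Hspa1a and Hspa1b both enter the inducible score. Without the pair it was 5.27, 6.02 and 6.09 in the older tumors and 6.34, 6.27 and 6.31 in the younger ones, a difference of -0.51. The age groups then did not overlap, but the gap was narrow (6.09 in tumor 116 against 6.27 in tumor 158). Of the genes left in this score, only Hspb1 did not overlap singly, and tumor 102 had the lowest Hsph1. No share over all genes and no value with a tumor left out were computed for it. The difference, older minus younger, was -0.61 for the inducible score (older 5.28 ± 0.38, younger 5.88 ± 0.35, SD, n = 3 each) and -0.23 for the constitutive score (older 7.87 ± 0.31, younger 8.10 ± 0.20, SD, n = 3 each). The constitutive difference was -0.07 without tumor 102 and -0.38 without tumor 116. Subtracting the constitutive from the inducible score within each tumor, which removes the library scaling, left -2.63, -2.64 and -2.50 in older tumors 102, 107 and 116 and -2.72, -2.09 and -1.82 in younger tumors 157, 158 and 167. The older tumors sat close together on this measure, while the younger ones reached both below and above them. These scores are given without a test, since the genes were listed with earlier results in view.

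**Figure D3:**
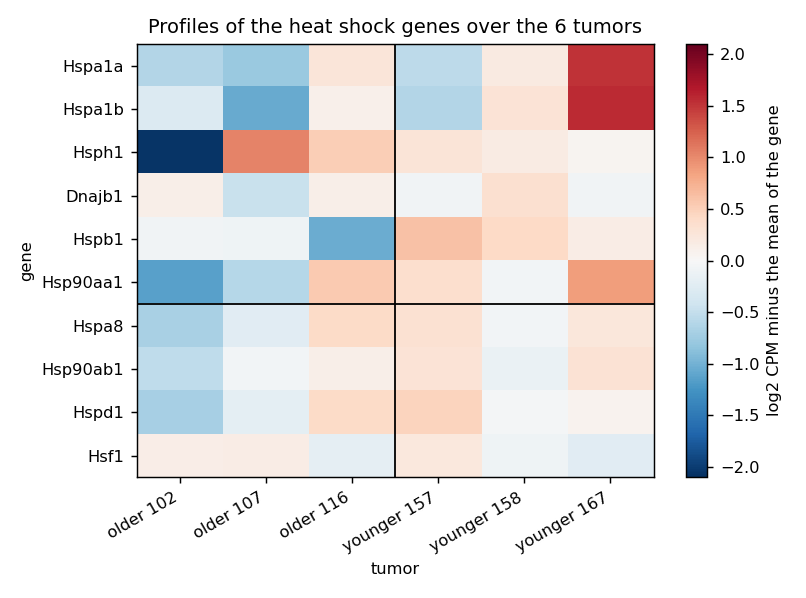
Log2 CPM of each gene (rows, inducible above the line, constitutive below) minus the mean of that gene over the 6 tumors (columns, older left of the line). Hspa1a and Hspa1b share their highest value in younger tumor 167 (1.51 and 1.56), whereas Hsph1 has its lowest in older tumor 102 (-2.05) and its highest in older tumor 107 (1.04).

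The 10 genes did not share a single profile over the tumors. Likeness was measured as the root mean square difference between the centred log2 CPM of 2 genes over the 6 tumors, a description with no test. It is not scaled for the range of each gene. Genes with a narrow range therefore tend to lie close together, and a gene with a wide range far from the others. The closest of the 45 pairs was Hspa8 with Hspd1 (0.09), followed by Hspa8 with Hsp90ab1 (0.15), Hsp90ab1 with Hspd1 (0.19) and Hspa1a with Hspa1b (0.19). The 3 closest pairs thus join the constitutive chaperones of the cytosol and of mitochondria. The 4 most distant pairs all included Hsph1, the gene with the widest range. The most distant was Hspa1b with Hsph1 (1.34), although both are counted as inducible. The closest pair, Hspa8 and Hspd1, held the longer heat shock motif shown above, but so did Hsph1, while Hsp90ab1 held no match in its window.

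Among 10229 named genes outside the set with a mean of at least 10 CPM, those with the profile most like the inducible score were Coq3 (0.10), Rdh11 (0.11), Higd2a (0.11), LOC100359876 (0.12) and Arl6ip1 (0.12). Coq3 takes part in the synthesis of coenzyme Q and Rdh11 reduces retinal. None of these 5 is a member of the chaperone lists examined here. Arl6ip1, the most abundant of them, was at 62.7, 88.2 and 124 CPM in older tumors 102, 107 and 116 and at 113, 111 and 152 CPM in younger tumors 157, 158 and 167.

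Within a tumor, the count of an inducible gene can be set against that of its constitutive partner, which removes depth and scaling, and its interval covers counting error only. The ratio of Hsp90aa1 to Hsp90ab1 was 0.205 in tumor 102, 0.216 in tumor 107 and 0.419 in tumor 116, and 0.327 in tumor 157, 0.330 in tumor 158 and 0.462 in tumor 167. Tumors 102 and 107 had exact 95% intervals below those of the other 4 tumors (at most 0.229, against at least 0.314). Tumor 116, also from an older rat, had a higher ratio than younger tumors 157 and 158, so the age groups overlapped in this ratio.

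The ratio of the Hspa1 pair to Hspa8 was 0.109, 0.0537 and 0.0753 in older tumors 102, 107 and 116 and 0.047, 0.111 and 0.223 in younger tumors 157, 158 and 167. Tumor 167 stood above all others, with an interval from 0.205 to 0.243, and tumor 157 of the same group was the lowest. Hsph1 against Hspa8 gave another order: 0.0327 in tumor 102, 0.213 in tumor 107 and 0.0942 in tumor 116, and 0.0839, 0.102 and 0.0763 in tumors 157, 158 and 167. The low Hsph1 of tumor 102 thus remained relative to another chaperone of the same library. Dnajb1 against Hspa8 was highest in that same tumor 102 (0.196), where it exceeded the next highest, 0.149 in tumor 158, with intervals that did not overlap (from 0.169 and up to 0.164). Hspa8 was at its lowest in tumor 102 (365 CPM), whereas Dnajb1 was at 71.6 CPM there, below the 83.3 CPM of tumor 158.

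**Figure D4:**
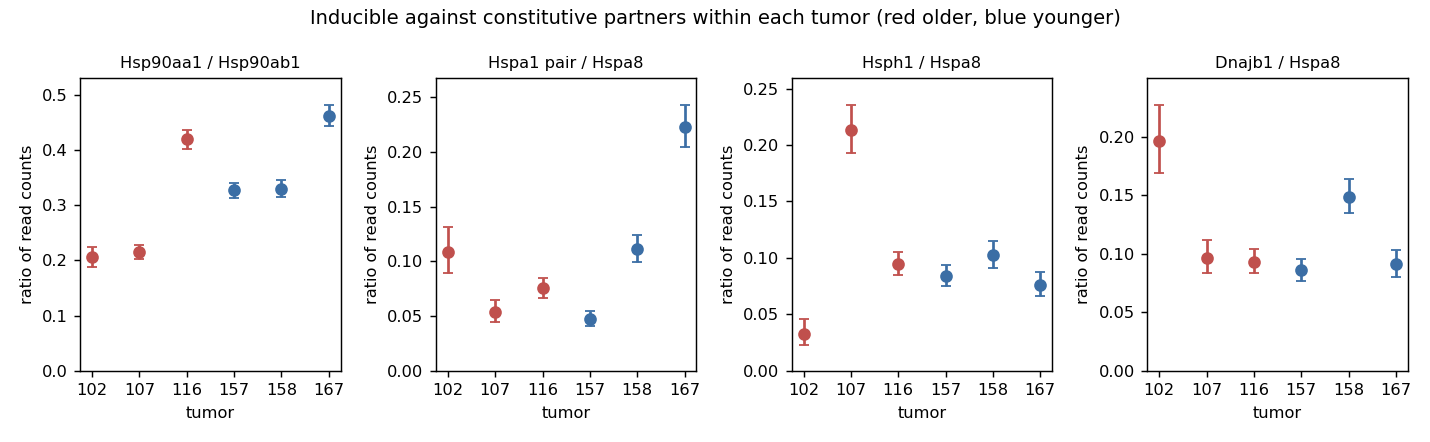
Ratio of read counts of an inducible gene to its constitutive partner (vertical axes, starting at 0) in each of the 6 tumors (horizontal axes), with exact 95% intervals for counting error. The tumor with the highest ratio is 167 for Hsp90aa1 (0.462) and for the Hspa1 pair (0.223), 107 for Hsph1 (0.213) and 102 for Dnajb1 (0.196).

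Immediate early genes, such as Fos and Egr1, respond within minutes to stress and to tissue handling, and the summed level of the 7 listed ones was 2854 CPM in tumor 102, 761 CPM in tumor 107 and 703 CPM in tumor 116, against 720, 1196 and 733 CPM in tumors 157, 158 and 167. Tumor 102, with the highest immediate early level, had the lowest Hsph1 and Hsp90aa1. Counted from the lowest, it ranked 2 for Hspa1a, 3 for Hspa1b and Hspb1 and 4 for Dnajb1. The tumor with the highest Hspa1 levels, 167, was near the lower end of the immediate early range. The part of stress or tissue handling in the heat shock values was not tested.

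The surrounding chaperone network was described with 62 further genes in 9 lists, of which 60 matched a row and 53 were tested. None passed an adjusted p of 0.05 (0 of 53, edgeR). At an unadjusted p under 0.05 there were 4 of the 53, beside 8.56% of all genes in either direction. Of these 4, 3 were lower in older tumors, where 3.27% of all genes were lower at that level. All older tumors lay below all younger ones for 5 of the 53 (Hspa4l, Bag2, Bag3, Stub1 and Hspa9), against the 5.58% of all genes. The median log2 fold change was -0.19, with 36 negative and 17 positive values, where 50.4% of all genes tested had a negative value. Tumor 102 was the lowest of the 6 tumors for 26 of the 53, against 27.3% of all genes tested. DESeq2 called 2 of the 53, Fkbp5 and Hspa4l, against 2.47% of all genes.

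Fkbp5 had the largest positive difference. It encodes FKBP51, an HSP90 cochaperone of steroid receptor complexes whose gene is a known target of glucocorticoids and progestins. Fkbp5 was at 180 CPM in tumor 102, 27.6 CPM in tumor 107 and 52.9 CPM in tumor 116, against 11.9 CPM in tumor 157, 14.9 CPM in tumor 158 and 6.21 CPM in tumor 167. Every older tumor lay above every younger one, which was the case for 1 of the 53 genes. The share of all genes in that order was not counted, so the 1 of 53 cannot be set against a background. At an unadjusted edgeR p under 0.05, 743 of all 14060 genes tested were higher in older tumors and 460 were lower. The fitted log2 difference of Fkbp5 was 2.96 (SE 0.72, edgeR adjusted p = 0.311), and it passed with DESeq2 (adjusted p = 0.00202). Without tumor 102 it was 1.86 in edgeR. The related Fkbp4, which encodes the FKBP52 of the same complexes, differed by -0.41 on the log2 scale (edgeR adjusted p = 0.754). The 5 adipocyte markers summed to 170 CPM in tumor 102 and to 32.6 and 19.5 CPM in older tumors 107 and 116, against 5.97 to 17.6 CPM in younger tumors, but each of the 5 genes overlapped between the age groups. The sum was mostly Fabp4 in tumor 102 (130 CPM) and mostly Lep in tumor 107 (24.3 CPM), and the part of these markers in the Fkbp5 values was not tested.

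Of the genes lower in older tumors, Hspa4l, Hspb8 and Bag3 had the smallest unadjusted p. Hspa4l, an HSP110 relative of Hsph1, was at 2.32, 6.40 and 7.59 CPM in older tumors 102, 107 and 116 and at 18.0, 83.8 and 10.7 CPM in younger tumors 157, 158 and 167. Its log2 fold change was -2.76 (SE 0.83, edgeR adjusted p = 0.37, DESeq2 adjusted p = 0.0242), and -1.37 without tumor 158. Bag3 and Hspb8 encode partners in a complex that directs damaged proteins to autophagy. Bag3 was at 12.6, 16.5 and 13.0 CPM in the older tumors and at 39.9, 17.9 and 24.6 CPM in the younger ones, a log2 difference of -0.96 (SE 0.36, edgeR adjusted p = 0.502). It was -0.60 without tumor 157, the highest of the younger tumors. Hspb8 was at 23.2, 11.03 and 12.8 CPM in the older tumors and at 57.5, 20.2 and 53.5 CPM in the younger ones, with overlap between tumors 102 and 158 (log2 difference -1.49, SE 0.48, edgeR adjusted p = 0.405). The 4 basal and myoepithelial markers matched to a row summed to 411 to 2415 CPM in older and 1712 to 2507 CPM in younger tumors, and their part in these values was not tested.

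By function, the 8 CCT subunits, which form the chaperonin for actin and tubulin, had log2 fold changes from -0.45 to 0.04, of which 7 were negative. The 5 mitochondrial chaperones all had negative values, from -0.39 to -0.12, where 50.4% of all genes tested were negative. Tumor 102 was the lowest tumor for 4 of the 8 CCT subunits and for 3 of the 5 mitochondrial chaperones. Hspe1, which shares its promoter region with Hspd1, was at 18.6, 20.1 and 44.0 CPM in older tumors 102, 107 and 116. It was at 33.5, 27.6 and 46.6 CPM in younger tumors 157, 158 and 167. Of the 8 J proteins 6 had positive values, with a median of 0.05. Among the 6 with positive values Dnajb4 had the smallest p, at a log2 difference of 0.47 (SE 0.40, edgeR adjusted p = 0.85), which was 0.07 without tumor 102. Of the HSP70 relatives, Hspa12b, a gene of endothelial cells, differed by a log2 value of 1.04 (SE 0.59, edgeR adjusted p = 0.741). It was 0.26 without tumor 102. The 4 endothelial markers summed to 62.7 to 269 CPM in older and 42.0 to 210.1 CPM in younger tumors. Of these markers Pecam1 was highest in tumor 102 (177 CPM), Kdr in tumor 107 (56.3 CPM) and both Cdh5 and Tie1 in tumor 158 (62.4 and 21.0 CPM), and their part in the Hspa12b values was not tested.

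The remaining lists held few genes. Of the 4 small heat shock proteins tested, 3 had negative values, among them Cryab, or alpha B-crystallin, at -1.02 (SE 0.49, edgeR adjusted p = 0.651). Hsf2, the second heat shock factor, was at 24.2, 15.9 and 24.7 CPM in the older tumors and at 12.3, 16.3 and 24.1 CPM in the younger ones (log2 fold change 0.30, edgeR adjusted p = 0.906). Hsf4 and Hsf5 had too few counts to be tested. Among the known HSF1 targets outside the chaperones, Serpinh1, the collagen chaperone HSP47, had a value of -0.42 and the ubiquitin gene Ubb a value of -0.33.

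**Figure D5:**
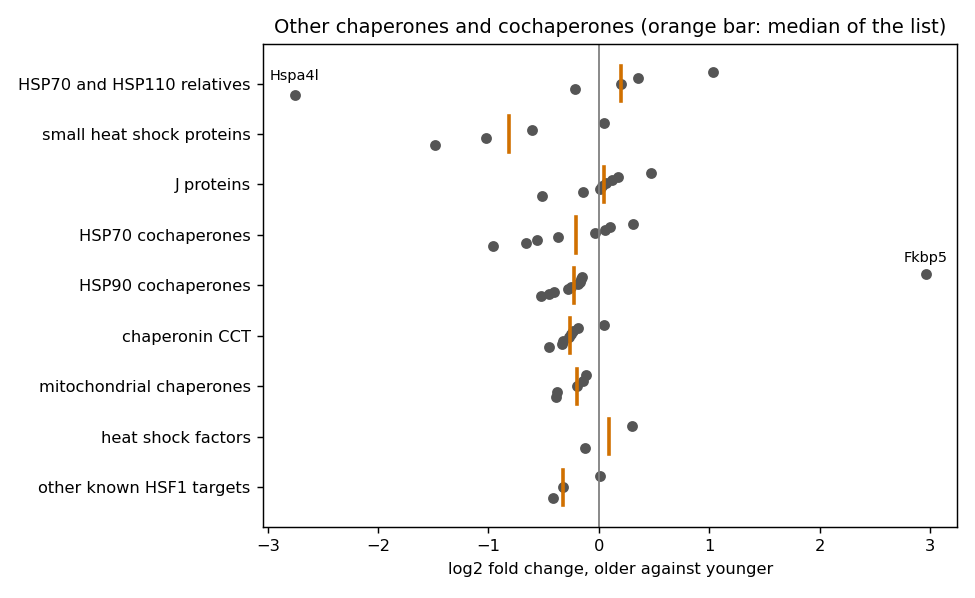
Log2 fold change, older against younger tumors (horizontal axis), of the 53 further chaperone and cochaperone genes tested, 1 point per gene, by list (vertical axis), with the median of each list as an orange bar. Most points lie between -1 and 1, and those outside are Fkbp5 at 2.96, Hspa12b at 1.04, Cryab at -1.02, Hspb8 at -1.49 and Hspa4l at -2.76.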

How the data were processed

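Bulk RNA-seq was measured in 6 rat mammary tumors, 3 per age group. The protocol text describes depletion of ribosomal RNA and paired reads of 150 bases, whereas other fields of the sample labels give polyA RNA and 100 bases. The authors used FastQC 0.11.7, Trimmomatic 0.38, STAR 2.7.9a, Picard 2.18.12 to mark duplicates and HTSeq 0.13.5, and deposited raw read counts per gene, without normalization. The submitters' processing notes name build mRatBN7.2. The annotation, the strand setting and the treatment of reads that map to several genes are not given in the sources used here; the last can lower counts of near-identical genes such as Hspa1a and Hspa1b.

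The age groups were compared on these counts by edgeR 4.0.16 under R 4.3.3 (filterByExpr, TMM, quasi-likelihood test, Benjamini-Hochberg adjustment over all genes, threshold 0.05, no covariates). The standard error is the log2 fold change divided by the square root of F, and 95% intervals use the fit's degrees of freedom. Log2 CPM used a prior count of 2. DESeq2 1.42.0, limma-voom (limma 3.58.1), other scalings and filters, a sum of the Hspa1 pair and leaving out each tumor were alternatives. The code was tested on simulated data. All 4367 rows without a name were kept. Ratios have exact binomial (Clopper-Pearson) intervals.

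The members and lists were chosen with earlier results of these data known. Text names all members and, of the chaperone lists, the 3 genes with the smallest p in each direction (Hspa4l, Hspb8 and Bag3, and Fkbp5, Hspa12b and Dnajb4). Bag2, Stub1, Hspa9, Fkbp4, Hspe1, Cryab, Hsf2, Serpinh1 and Ubb were named with their values known, and the remaining listed genes enter only as counts, ranges and medians. Summed marker levels that the report omits were 6.42 to 60.0 CPM for skeletal muscle and 112 to 1178 CPM for fibroblasts, and both overlapped between the age groups. Promoters came from RefSeq (GRCr8) by symbol. Tissue other than bulk RNA was not analysed here.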

Additional observations from a re-analysis of the deposited data

How the results depend on the processing

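No paired analysis was possible because no number is shared between the 2 age groups. The count of genes past an adjusted p of 0.05, 0 with edgeR (1203 at an unadjusted p under 0.05), was 346 with DESeq2's Wald test (232 higher and 114 lower in older tumors) and 1 when every gene with at least 1 count was tested. It was 0 under the other 6 settings with all tumors and when each of the 6 tumors was left out in turn. The count of heat shock members was 0 under every setting run. The count over the chaperone lists was 2 with DESeq2, Hspa4l at -2.79 and Fkbp5 at 2.97, and 0 elsewhere. The cause of the difference between the tests was not tested.

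Of 140 refitted member values, 133 kept their sign and 7 changed it, none past the threshold. Those were Hsph1 (-0.24 with limma-voom, -0.42 without tumor 107), Dnajb1 (0.038 without tumor 107, 0.026 without tumor 158) and Hsf1 (-0.019 with library totals, -0.0055 without tumor 107, -0.037 without tumor 167). With a tumor left out, Hsph1 ranged from -0.42 to 0.63, Dnajb1 from -0.23 to 0.038 and Hsf1 from -0.037 to 0.20. The inducible score difference ranged from -0.81 to -0.42, the constitutive from -0.38 to -0.07 and their difference from -0.64 to -0.18, the last nearest to 0 without tumor 167. At totals of 3508571 to 6525830 counts, Hspb1 (30 to 113 counts) and Hspa1a (33 to 207 counts) rested on the fewest counts of the members, which limits their precision.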
